A study of Mus musculus with 59 samples.

Results

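In fed mouse liver, BCL6 was called at 15642 peaks, and 461 of them (2.95%) kept a BCL6 peak in fasted liver while PPARα was called there in fasted liver but not in fed liver. These 461 peaks are described here. They were selected on the measured peak lists themselves. A fed BCL6 peak was taken when the center of a fasted BCL6 peak and the center of a fasted PPARα peak each lay within 200 bp of its own center, and no fed PPARα center did. The pattern of calls that chose them is therefore given as a description, without a test.

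The peaks come from ChIP-seq, in which the DNA bound by a protein is recovered with an antibody and sequenced. BCL6, PPARα and PPARδ were each mapped in livers of wild-type male C57BL/6 mice that were fed ad libitum or fasted overnight, with 3 biological replicates per group. A second fed BCL6 list came from 3 Bcl6 fl/fl mice, which carry floxed Bcl6 alleles without Cre and served as controls of a liver knockout. Each of the 7 lists pools its replicates and gives only the position of each peak, so a site is either called or not called, no call carries an error between replicates, and the depth behind a missing call is unknown. Whole liver was used, so fewer bound cells and less binding per cell cannot be told apart.

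BCL6 is a zinc-finger repressor best known from germinal center B cells, where it recruits the corepressors SMRT and NCoR and histone deacetylases to target genes. Its DNA element resembles that of STAT factors. PPARα is a nuclear receptor that is activated by fatty acids and drives fatty acid oxidation and ketone body production in the fasted liver. It binds as a heterodimer with RXR to direct repeats of the hexamer AGGTCA with 1 base between the repeats, called DR1 elements, and PPARδ binds the same kind of element.

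The sequences below show the DNA under 6 of the 21 members that held a match to both kinds of element, selected for few mismatches, since these are the sites where the letters for either factor lie under the same peak. A DR1 match had at most 2 mismatches over the 12 letters of the repeat, and a BCL6 match had at most 1 mismatch to TTCCTAGAA, on either strand. Each line gives the GRCm38 (mm10) reference from RefSeq, 5′ to 3′ on the plus strand, named by the gene with the nearest protein-coding transcription start site (TSS). Capitals mark 1 match to each element, with the fewest mismatches. At Psmb6 a further DR1 match within the mismatches allowed overlaps the marked one and runs on into the lower case. In all 6 of these stretches the BCL6 element is the first run of capitals and the DR1 element the last.
Fastkd1, chr2:69701723-69701822: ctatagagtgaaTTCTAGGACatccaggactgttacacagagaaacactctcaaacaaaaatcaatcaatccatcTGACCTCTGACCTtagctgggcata
Foxp1, chr6:98987631-98987752: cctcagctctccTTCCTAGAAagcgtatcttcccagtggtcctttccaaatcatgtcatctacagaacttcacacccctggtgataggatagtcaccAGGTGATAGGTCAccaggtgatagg
Psmb6, chr11:70523402-70523479: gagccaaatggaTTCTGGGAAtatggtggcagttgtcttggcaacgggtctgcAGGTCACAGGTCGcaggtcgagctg
Dusp28, chr1:92906744-92906820: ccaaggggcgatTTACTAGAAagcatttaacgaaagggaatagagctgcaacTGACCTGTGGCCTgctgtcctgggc
Prkag2, chr5:24930996-24931057: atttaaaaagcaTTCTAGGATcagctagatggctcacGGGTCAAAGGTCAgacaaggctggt
Lmntd1, chr6:145522698-145522868: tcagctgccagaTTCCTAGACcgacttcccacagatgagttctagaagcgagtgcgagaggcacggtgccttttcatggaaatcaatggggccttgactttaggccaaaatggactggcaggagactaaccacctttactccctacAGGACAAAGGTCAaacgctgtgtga

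The Fastkd1 site, in intron 7 of the gene, was the 1 member with a DR1 element free of mismatches. The Foxp1 site, in intron 8, held the BCL6 element without a mismatch and a DR1 element with 1 mismatch. The elements did not overlap in any of the 6 stretches and lay between 16 bases (Prkag2, in intron 2) and 125 bases (Lmntd1) apart. At these sites the fasted PPARα center lay 38 to 75 bp from the fed BCL6 center, in each case toward the DR1 element. At Prkag2 the BCL6 element lay on that side as well, so the direction does not tell the elements apart there. The nearest fed PPARα center lay from 1001 bp (Prkag2) to 72292 bp (Fastkd1) away. Only the Dusp28 site was also called for PPARδ, in fed livers. Fastkd1 encodes a mitochondrial RNA-binding protein, Foxp1 a forkhead repressor, Prkag2 a regulatory subunit of the AMP-activated kinase and Psmb6 a proteasome subunit.

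Among genes of the metabolic lists described below, DR1 elements lay under members at Eci3, an enoyl-CoA isomerase of fatty acid oxidation, Irs2, an adaptor of the insulin receptor, and Atg12, an autophagy conjugation factor, whose member held both elements and whose sequence is not shown. The Eci3 stretch also held a BCL6 element, here the second run of capitals.
Eci3, chr13:34961385-34961456: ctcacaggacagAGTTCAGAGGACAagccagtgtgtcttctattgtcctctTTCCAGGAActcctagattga
Irs2, chr8:11098613-11098649: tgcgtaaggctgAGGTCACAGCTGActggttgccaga

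Another 6 members at listed genes held a BCL6 element and no DR1 match in the fed BCL6 peak. At Bnip3 the fasted PPARα center lay 157 bp from the fed BCL6 center, outside the DNA searched. These 6 members were chosen after their values were seen, to show this more frequent arrangement.
Cyp7a1, chr4:6270732-6270764: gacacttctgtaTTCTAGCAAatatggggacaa
Elovl5, chr9:77939390-77939422: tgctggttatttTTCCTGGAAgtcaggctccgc
Lipc, chr9:70824369-70824401: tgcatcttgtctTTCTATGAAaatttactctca
Foxa2, chr2:147981114-147981146: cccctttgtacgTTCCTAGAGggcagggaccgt
Bcor, chrX:12249213-12249245: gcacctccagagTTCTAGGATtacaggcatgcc
Bnip3, chr7:138919360-138919392: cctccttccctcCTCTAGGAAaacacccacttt

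Members were a small class of the fed BCL6 cistrome. Of the 15642 fed peaks, 5946 kept BCL6 and had PPARα in both states, 3422 had PPARα in both states and no fasted BCL6 call, and 2607 had neither fasted BCL6 nor any PPARα call. PPARα was called in fasted but not in fed liver at a further 801 peaks where BCL6 was called only in fed liver. BCL6 stayed called without PPARα in either state at 817 peaks, and 432 kept BCL6 and had PPARα in fed liver only. The members are compared below with the 3 classes that differ from them by 1 part of the rule, namely the 5946 peaks with both factors in both states, the 801 peaks that also gained a PPARα call but lost the BCL6 call, and the 817 peaks that kept BCL6 with no PPARα call.

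**Figure D1:**
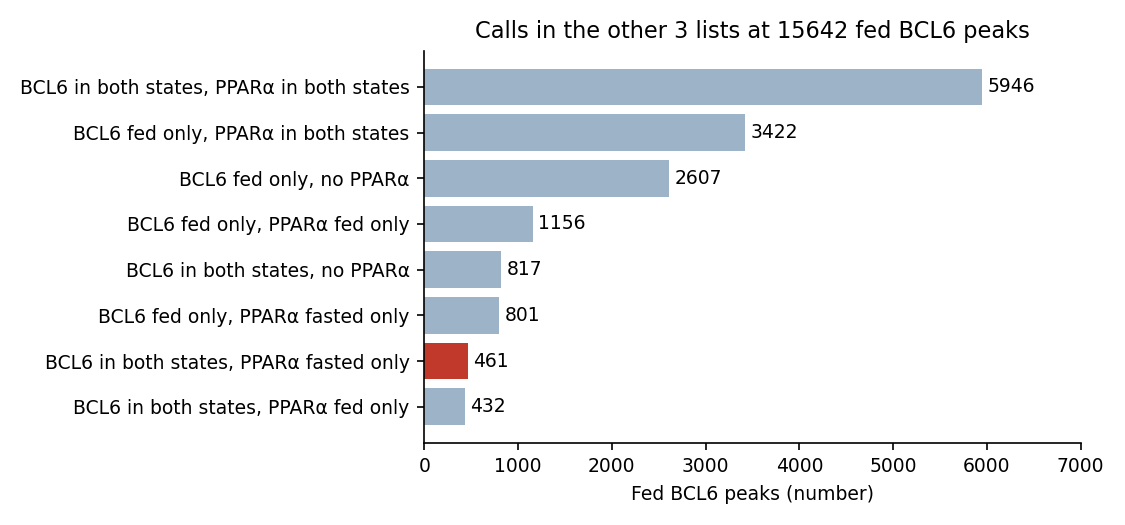
Number of fed BCL6 peaks (horizontal axis) for each combination of calls for BCL6 in fasted liver and for PPARα in fed and fasted liver. The 461 members, in red, are the second smallest of the 8 combinations, above the 432 peaks with BCL6 in both states and PPARα in fed liver only.

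The peaks of the different lists lay close to each other within the members. The median distance from the fed to the fasted BCL6 center was 25 bp (quartiles 10 and 49 bp), and that to the fasted PPARα center was 34 bp (quartiles 15 and 61 bp). The fasted PPARα center lay within 50 bp at 303 members (65.7%), and 17 members had it between 150 and 200 bp away. For peaks with both factors in both states these medians were 24 and 26 bp. The closest fed PPARα center was a median of 8300 bp from a member (quartiles 2153 and 26177 bp), and it was over 10 kb away for 212 members (46.0%).

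Some members sat at the edge of the rule. For 17 members a fed PPARα center lay over 200 and up to 250 bp away, as at the Timd2 promoter (203 bp) and the Slc25a25 promoter (235 bp). Just outside the rule, 31 peaks that had BCL6 and fasted PPARα were left out because a fed PPARα center was over 150 and up to 200 bp away. A further 16 peaks were left out because the fasted PPARα center was over 200 and up to 250 bp away. With no fed PPARα center allowed within 1000 bp, 396 members remained.

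**Figure D2:**
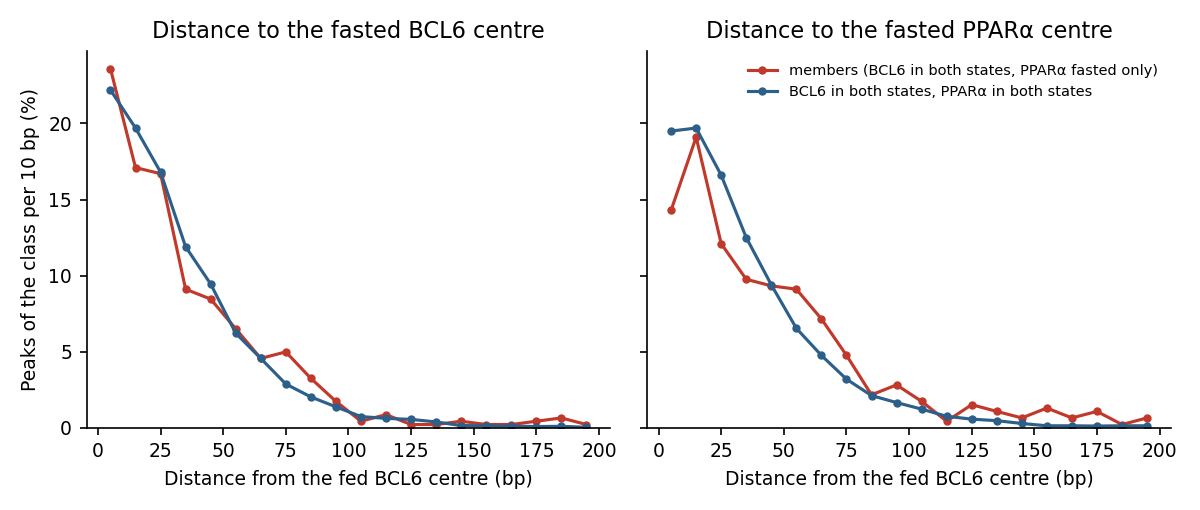
Distance in bp (horizontal axes) from the fed BCL6 center to the nearest fasted BCL6 center (left) and fasted PPARα center (right), as the percentage of peaks per 10 bp (vertical axis) for the 461 members (red) and the 5946 peaks with both factors in both states (blue). Most peaks of either class lie within 50 bp, and 3.69% of members have the fasted PPARα center between 150 and 200 bp.

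Livers of fed Bcl6 fl/fl mice gave a BCL6 list that the rule did not use. BCL6 was called there at 333 of the 461 members, or 72.2% (95% Wilson interval 68.0 to 76.1%), against 69.4% of all fed BCL6 peaks. Members stood between the classes in this readout. The share was 90.4% (89.7 to 91.2%) at peaks with both factors in both states and 84.6% (81.9 to 86.9%) at peaks that kept BCL6 without PPARα, both above the members (odds ratios of members over class 0.275 and 0.474, adjusted p = 3.17e-25 and 4.23e-07). It was 39.2% (35.9 to 42.6%) where PPARα was gained and BCL6 was not called in fasted liver, below the members (odds ratio 4.03, 95% interval 3.13 to 5.22, adjusted p = 3.15e-29). These are two-sided Fisher's exact tests, adjusted by the Benjamini-Hochberg method over all 18 comparisons of 6 measures with 3 classes, of which 11 had an adjusted p under 0.05. Peaks were the units of these tests and are not replicates, and the intervals cover counting error only. By the rule, members also had a BCL6 call in fasted liver, which the class at 39.2% lacked. Peak strength is unknown in these lists, and its part in the difference was not tested.

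PPARδ, the second PPAR mapped in these livers, was called at few members. In fed livers it was called at 52 members, or 11.3% (8.71 to 14.5%), against 26.9% of all fed BCL6 peaks. At peaks with both factors in both states the share was 46.6% (45.4 to 47.9%), well above the members (odds ratio 0.145, 95% interval 0.106 to 0.196, adjusted p = 4.82e-55). Peaks that gained PPARα without fasted BCL6 had 10.1% (8.21 to 12.4%), and the difference did not pass the test (odds ratio 1.13, 95% interval 0.765 to 1.66, adjusted p = 0.609, Fisher's exact test). Where BCL6 was kept without PPARα the share was 2.33% (1.49 to 3.60%), lower than in members (odds ratio 5.34, adjusted p = 1.94e-10). That odds ratio was 2.86 with PPARδ centers counted within 400 bp and 2.52 with the classes formed at 100 bp, and the difference passed the test in both settings.

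At these 52 members PPARδ was called in fed liver and PPARα was not. A fed PPARα center lay within 1000 bp of 17 of the 52 (32.7%), compared with 48 of the other 409 members (11.7%). Members at Bnip3 (218 bp), Ppp1r3b (338 bp), Irs2 (477 bp) and Igfbp2 (501 bp) were of this kind. The part of nearby fed PPARα peaks in the PPARδ share was not tested, and the difference from peaks with both factors in both states kept its direction and its call when members were required to have no fed PPARα center within 1000 bp.

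In fasted livers PPARδ was called at 8 members, or 1.74% (0.882 to 3.39%), against 6.40% of all fed BCL6 peaks. Only 5 members were called for PPARδ in both states, 47 in fed liver alone and 3 in fasted liver alone, while 406 (88.1%) had no PPARδ call. The fasted share was lower than the 12.5% (11.7 to 13.4%) at peaks with both factors in both states (odds ratio 0.123, adjusted p = 7.11e-16), with an odds ratio of 0.0666 for centers within 100 bp and 0.0718 with no fed PPARα center within 1000 bp. It did not differ by the test from the 0.749% at peaks that gained PPARα and lost BCL6 (odds ratio 2.34, 95% interval 0.706 to 8.23, adjusted p = 0.221, Fisher's exact test). Against the 0.245% at peaks with BCL6 alone the adjusted p was 0.00949 by Fisher's exact test, but only 8 and 2 peaks carried the call, and it was lost in 4 of the other settings tried. The Acot1 and Bnip3 sites were among the 8.

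**Figure D3:**
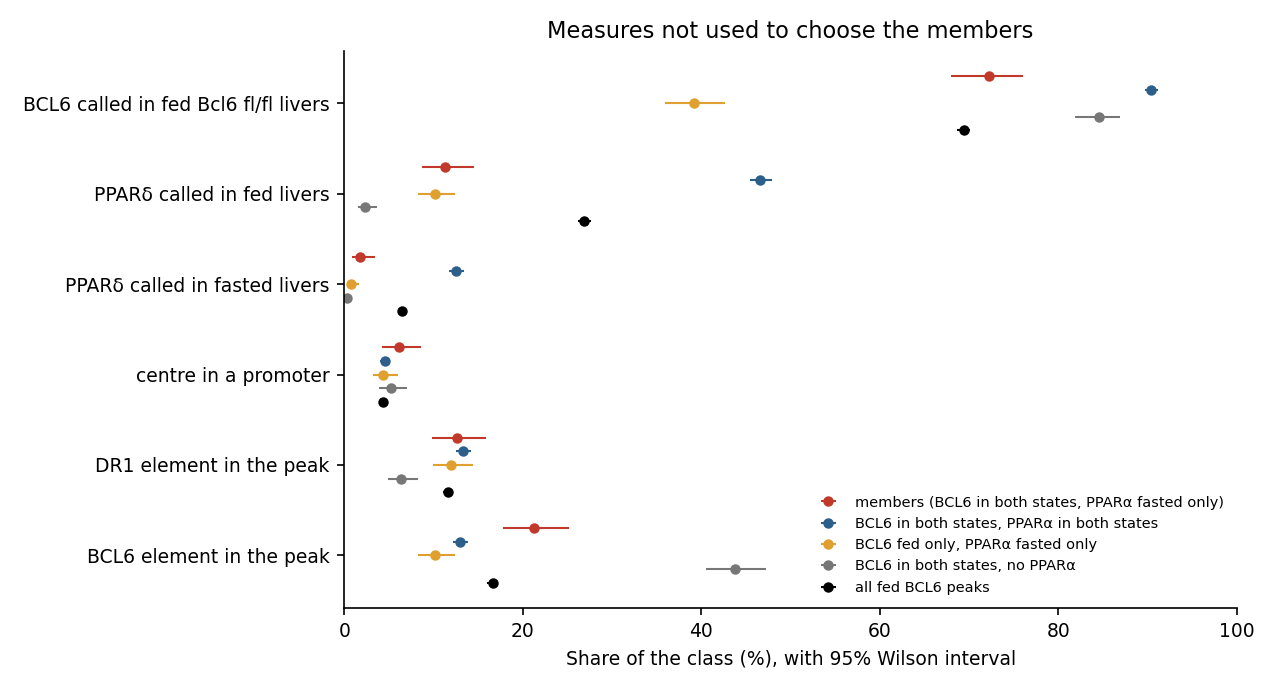
Share of each class in percent (horizontal axis, points, with 95% Wilson intervals as bars) for 6 measures that did not choose the members, in the 461 members (red), the 3 compared classes and all fed BCL6 peaks (black). Members lie at 72.2% for BCL6 in fl/fl livers, between 39.2% and 90.4% in the classes, and at 21.3% for the BCL6 element, between 10.1% and 43.8%.

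BCL6 elements were more frequent in members than in the 2 compared classes with PPARα. An element with at most 1 mismatch lay in 98 members, or 21.3% (17.8 to 25.2%), against 16.6% of all fed BCL6 peaks, and 14 of them matched all 9 letters. The share was 13.0% (12.2 to 13.9%) at peaks with both factors in both states (odds ratio 1.81, 95% interval 1.41 to 2.29, adjusted p = 5.47e-06) and 10.1% (8.21 to 12.4%) at peaks that gained PPARα and lost the BCL6 call (odds ratio 2.40, 95% interval 1.72 to 3.35, adjusted p = 2.50e-07). Peaks that kept BCL6 without PPARα had 43.8% (40.5 to 47.2%), above the members (odds ratio 0.346, adjusted p = 8.08e-16). These 3 differences kept their direction and call with no mismatch allowed, in the 50 bp window and without repeats. With no mismatch the odds ratios against the classes with PPARα were 2.79 and 8.33. These values rest on only 14 members and were given no interval, so their size is uncertain. The element was present in 84 of the 333 members called in fl/fl livers (25.2%) and in 14 of the 128 members not called there (10.9%), values given without a test.

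For DR1 elements, members were not told apart from the 2 compared classes with PPARα. A DR1 match lay in 58 members, or 12.6% (9.86 to 15.9%), against 11.6% of all fed BCL6 peaks. In 48 of these the best match had 2 mismatches, in 9 it had 1, and in 1 it had none. The share was 13.3% (12.5 to 14.2%) at peaks with both factors in both states (odds ratio 0.937, 95% interval 0.692 to 1.25, adjusted p = 0.764) and 12.0% (9.92 to 14.4%) at peaks that gained PPARα and lost BCL6 (odds ratio 1.06, 95% interval 0.732 to 1.52, adjusted p = 0.789), and neither difference passed Fisher's exact test. Peaks that kept BCL6 without PPARα had 6.36% (4.89 to 8.25%), below the members (odds ratio 2.12, 95% interval 1.40 to 3.20, adjusted p = 4.42e-04). That call was lost in the 50 bp window (odds ratio 1.12) and with at most 1 mismatch (odds ratio 1.27).

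The elements lay near the centers of the peaks. Around the fed BCL6 center of the members, a BCL6 element was present in 7.38% of regions per 50 bp bin within 50 bp, compared with 1.57% per bin beyond 300 bp. Around the fasted PPARα center, BCL6 elements were present in 4.12% of regions per bin within 50 bp and in 1.41% beyond 300 bp. They did not peak at that center, as the highest bin was the one from 50 to 100 bp, at 5.42%. DR1 elements were present in 4.88% of regions per bin within 50 bp of the fasted PPARα center and in 4.01% near the fed BCL6 center, with 0.868% and 0.922% beyond 300 bp. Of the 98 members with a BCL6 element, 79 had the element closer to the fed BCL6 center than to the fasted PPARα center. Its median distance was 34.0 bp from the first and 75.5 bp from the second. The 58 DR1 elements were nearly even, with 31 closer to the PPARα center and 27 closer to the BCL6 center. For these counts and medians, elements were searched only in the 216 bp around the fed BCL6 center. That window favors the BCL6 center by construction, so the counts do not show which factor an element lies nearer to.

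**Figure D4:**
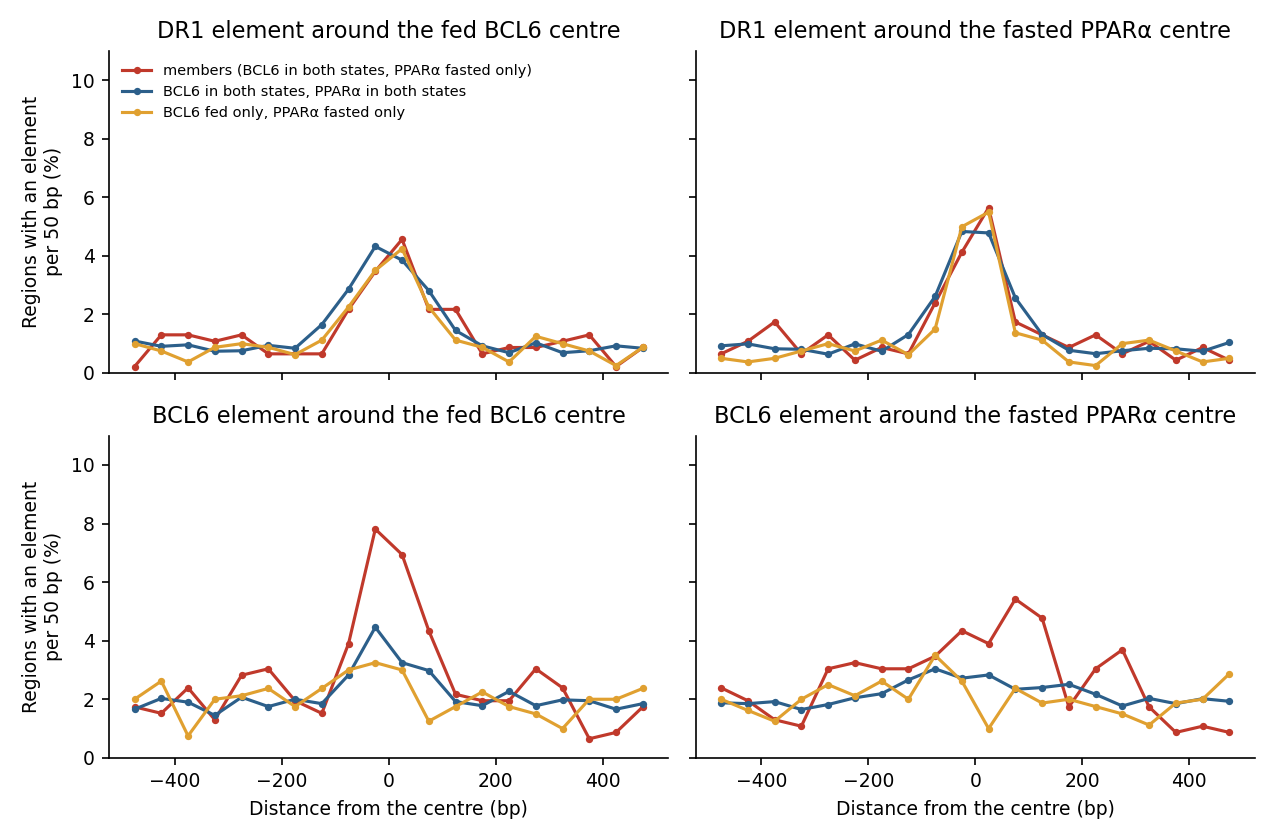
Percentage of regions with a DR1 element (top) or a BCL6 element (bottom) per 50 bp (vertical axes) by distance in bp from the fed BCL6 center (left) or the fasted PPARα center (right), for the members (red), peaks with both factors in both states (blue) and peaks that gained PPARα without fasted BCL6 (yellow). In members the BCL6 element reaches 7.81% and 6.94% in the bins beside the fed BCL6 center, and the DR1 element 4.12% and 5.64% beside the fasted PPARα center.

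Both elements were present in 21 members (4.56%), a DR1 element alone in 37, a BCL6 element alone in 77, and neither in 326 (70.7%). Of the other 6 elements searched, that of STAT factors (TTCNNNGAA, which overlaps the BCL6 element in its outer letters) was the most frequent, in 14.8% of members against 15.4% of all fed BCL6 peaks. Elements of the liver pioneer factor FOXA (TGTTTAC) were in 10.4% against 10.2%, of C/EBP (TTGCGCAA, up to 1 mismatch) in 10.6% against 12.1%, of HNF6 (TATTGAT) in 8.03% against 12.0% and of the cAMP-response factor CREB (TGACGTCA, up to 1 mismatch) in 9.76% against 7.69%. The element of the glucocorticoid receptor was in 2.17% against 2.43%. At least 1 of the 8 elements was present in 268 members (58.1%). For this count, and for those of both elements, either alone or neither, the share over all fed BCL6 peaks was not computed. These counts therefore do not set the members apart. A missing match says only that these letters are not in the 216 bp of the peak.

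Members were mostly distal, as were fed BCL6 peaks in general. Their centers lay a median of 25528 bp from the nearest protein-coding TSS (quartiles 7741 and 65266 bp). The median over all fed BCL6 peaks was 26608 bp. Over 100 kb from a TSS lay 75 members (16.3%), against 19.9% of all fed BCL6 peaks. An intron held 227 of the centers (49.2%, against 50.9%), a coding exon 3 and a UTR 6. A promoter, taken as the 1000 bp before and 100 bp after a RefSeq TSS, held 28 members, or 6.07% (4.24 to 8.64%), against 4.36% of all fed BCL6 peaks. The shares in the 3 classes were 4.52%, 4.37% and 5.26%, and none differed from the members by Fisher's exact test (odds ratios 1.36, 1.42 and 1.16, adjusted p = 0.201, 0.234 and 0.688).

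Of the 28 promoter members, 24 had the start of a protein-coding gene as their nearest one, and 25 were called for BCL6 in fl/fl livers. The matching shares for all fed BCL6 peaks in promoters were not computed. Promoters with a center close to the TSS are named here. The Ugt2b35 and Ugt2b5 promoters, of UDP-glucuronosyltransferases, held a member center at -51 and -76 bp. That of Akr1d1, the steroid reductase of bile acid synthesis, held one at -64 bp (chr6:37530001-37530217). The secreted proteins Mbl2, a mannose-binding lectin, and Pzp, a protease inhibitor, had centers at -73 and -83 bp, and the cytochrome P450 Cyp2c54 at -92 bp.

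None of the Akr1d1, Mbl2, Ugt2b35, Ugt2b5 and Cyp2c54 promoter peaks held a DR1 or a BCL6 element, and those of Ugt2b35 and Cyp2c54 were called for PPARδ in fed liver. Further promoters were those of Spry1, an inhibitor of receptor tyrosine kinase signaling, at -150 bp, the zinc-finger gene Zfp458 at -160 bp, the phosphatase gene Dusp28 at -198 bp, the nucleotidase gene Nt5c2 at -264 bp, the splicing factor gene Rbm25 at -268 bp and Acot1, an acyl-CoA thioesterase, at -298 bp. The peaks at Dusp28 and Rbm25 held both elements. The lncRNA genes Gm34235 and Gm11714 had centers at -44 and 83 bp. Reads with several matches in the genome were not used, which bears on near-identical genes such as those of the Ugt2b, Cyp2c and Acot families.

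Most genes with a member had only 1. The fed BCL6 peaks as a whole were nearest to 6088 genes, and no equally small set of them was counted for comparison. By the nearest protein-coding TSS within 1 Mb, 460 members fell to 430 genes, of which 402 had 1 member and 26 had 2. For 248 of the 430 genes, another fed BCL6 peak nearest to the same gene had both factors in both states. The same share over all genes with a fed BCL6 peak was not computed. Another peak with both factors in both states lay within 10 kb of 25.8% of members and of 27.5% of all fed BCL6 peaks. The nearest gene need not be the regulated one, and no expression data were used.

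Only Akr1d1 and Irs2 had 3 members. Of the 14 fed BCL6 peaks nearest to Akr1d1, 6 had both factors in both states and 3 were members, at the promoter and 88986 and 149857 bp downstream of the TSS. All 3 were called for BCL6 in fl/fl livers and none for PPARδ. Irs2 had 22 fed BCL6 peaks, of which 11 had both factors in both states and 3 were members, with centers at -57238, -89716 and -140073 bp from the TSS. The member at -89716 bp is the one with the DR1 element shown above, and the one at -140073 bp was called for PPARδ in fed liver and had a fed PPARα center 477 bp away.

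The 14 gene lists cover fasting and fed metabolism, signaling and cell identity, and 35 members were nearest to a listed gene. In each list the 95% Wilson interval of the share of members among its fed BCL6 peaks included the 2.95% found over all fed BCL6 peaks.

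The lists of fasting fuel pathways held 4 members in all. Of 152 fed BCL6 peaks nearest to fatty acid oxidation genes, 3 were members (1.97%, interval 0.673 to 5.64%), while 88 (57.9%) had both factors in both states. The 3 were the Acot1 promoter peak, a peak at -29452 bp from Eci2, an enoyl-CoA isomerase, and the peak in intron 1 of Eci3. None of the 34 peaks at ketone body genes was a member (0%, interval 0 to 10.2%), where 21 had both factors in both states. Over all fed BCL6 peaks, 38.0% had both factors in both states. Among the 14 lists that share ran from 33.3% (autophagy) to 61.8% (ketone bodies), with 59.8% for glucose and glycogen, so a high share was not particular to fasting fuel genes. Other PPAR targets and lipid storage genes had 1 member among 87 peaks, at the promoter of the mitochondrial carrier gene Slc25a25.

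In the next 3 lists each gene with a member had only 1, apart from Irs2. In the lipogenesis list 2 of 73 peaks were members (2.74%), in intron 1 of Elovl5, a fatty acid elongase, and intron 5 of Me1, malic enzyme. In the glucose and glycogen list 3 of 107 were members (2.80%). These lay in intron 7 of Gys2, liver glycogen synthase, 29922 bp downstream of the TSS of Ppp1r3b, which targets a phosphatase to glycogen, and 99703 bp downstream of that of Foxo1, a forkhead factor restrained by insulin. Insulin and growth hormone signaling had 7 members among 198 peaks (3.54%, interval 1.72 to 7.12%), the most of any list. Besides the 3 at Irs2 these were at the Igf1 promoter (-487 bp), intron 2 of the insulin receptor gene Insr, 146032 bp downstream of the TSS of Irs1 and at -32587 bp from Igfbp2, an IGF-binding protein.

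Nuclear receptor genes had 6 members among 143 peaks (4.20%, interval 1.94 to 8.85%). Nr1i2, the xenobiotic receptor PXR, Nr3c1, the glucocorticoid receptor, and Nr3c2, the mineralocorticoid receptor, had 1 each in an intron. Nr5a2, a regulator of bile acid synthesis, had 1 at -50291 bp, and the orphan receptor gene Nr2f2 had 2, at -175714 and -897524 bp. In the list of BCL6 and its corepressors 3 of 74 peaks were members (4.05%). They were 2 peaks upstream of Bcor, the BCL6 corepressor, at -88909 and -92102 bp, and 1 at -284210 bp from Tbl1xr1, a subunit of the SMRT and NCoR complexes.

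Cholesterol and bile acid genes had 4 members among 126 peaks (3.17%). These were in intron 4 of Cyp7a1, the rate-limiting enzyme of bile acid synthesis, in intron 2 of the sterol transporter gene Abcg8, and 2 in intron 2 of Lipc, hepatic lipase. The other 5 of the 6 fed BCL6 peaks nearest to Cyp7a1 had both factors in both states. Autophagy genes had 3 of 42 (7.14%, interval 2.46 to 19.0%), at the mitophagy receptor gene Bnip3, the lysosomal membrane protein gene Lamp2 and the conjugation factor gene Atg12. The clock list had 1 of 43, at the promoter of the clock kinase gene Csnk1d (-591 bp), the amino acid and urea list 1 of 86, in intron 1 of the urea cycle gene Cps1, and the hepatocyte markers 1 of 102, at Foxa2. No member was nearest to a marker of other liver cells, which had 29 fed BCL6 peaks.

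**Figure D5:**
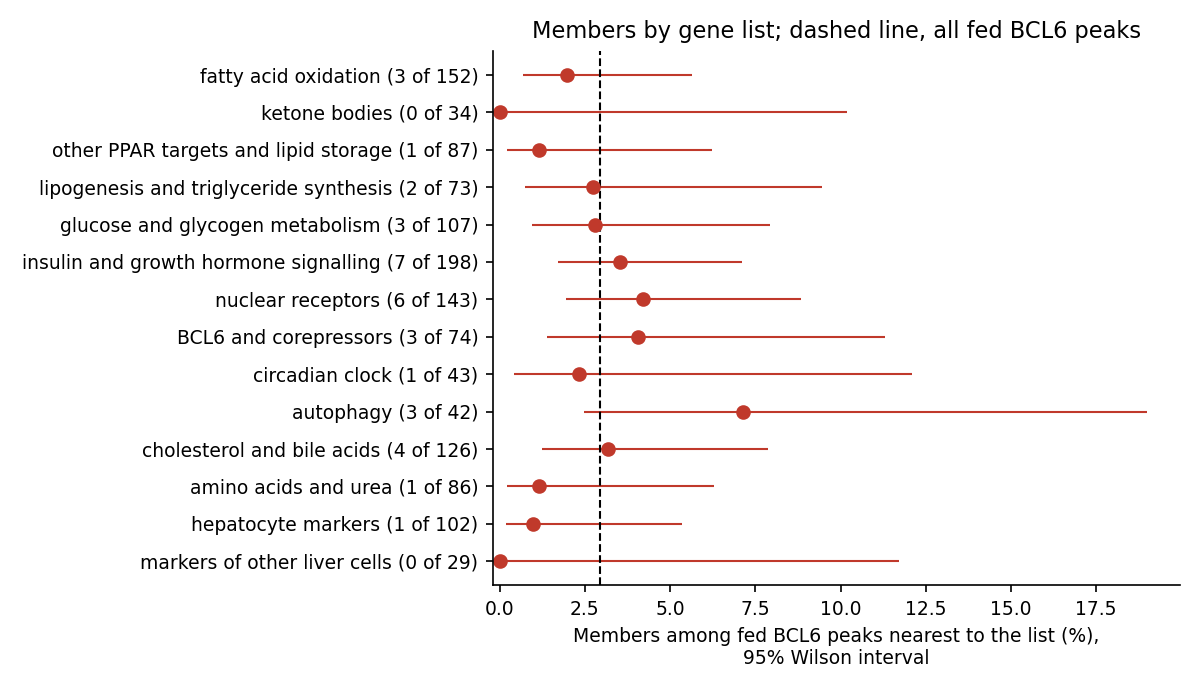
Members as a percentage of the fed BCL6 peaks nearest to the genes of each list (horizontal axis), with 95% Wilson intervals and, in brackets, members of all fed BCL6 peaks of the list. The dashed line marks 2.95%, the share over all fed BCL6 peaks, and every interval includes it.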

How the data were processed

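The positions used were deposited as 7 peak lists, in bp, with 1 list for each factor and feeding state in C57BL/6 livers and 1 for BCL6 in fed Bcl6 fl/fl livers. Per the methods, the authors mapped reads to mm10 using Bowtie, retained unique reads and 1 read per start, called peaks against input with HOMER on pooled replicates, and filtered them with DESeq2 for 2-fold enrichment at a false discovery rate of 0.05. The lists carry no tag count, score or p-value, so library depth is unknown and no peak strength was compared. Samples without a peak list, among the 59 of the series, were not used here.

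Centers within 200 bp, the distance used by the authors, counted as shared. Genes, promoters and sequence came from RefSeq on GRCm38.p6 (45756 curated transcripts, 21000 protein-coding genes). A 216 bp peak was read from the base after its start to its end. Fisher's exact test (two-sided) compared members with 3 classes, and its p-values were adjusted over 18 tests by Benjamini and Hochberg's method. The functions were tested on simulated data.

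The members and the gene lists were chosen with earlier results of these data known. Named genes are those with at least 3 members, those of the lists with a member, and the 15 promoters closest to a member, of which 1 is not reported here. Sequences shown are members with both elements, at most 6, ordered by mismatches and then by the distance between centers, and listed genes with a DR1 element, outside chromosome 18. Alternatives covered the distance, promoter window, transcripts, elements, reach of the TSS and joining of peaks. Python 3.11.15, SciPy 1.17.1, pandas, pysam and Matplotlib 3.10.9 were used.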

Additional observations from a re-analysis of the deposited data

How the results depend on the processing

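The number of members was between 396 and 490 under 7 other rules, against 461. Of 59 alternative values for the 11 odds ratios that passed the test, 53 kept direction and call and 6 lost the call. Fasted PPARδ against BCL6 without PPARα gave an odds ratio of 7.14 within 100 bp, 2.30 within 400 bp, 1.08 with classes formed at 100 bp and 7.20 with no fed PPARα within 1000 bp, a setting chosen after seeing the data. DR1 against BCL6 without PPARα gave 1.12 in the 50 bp window and 1.27 with at most 1 mismatch. Fed PPARδ against PPARα gained with BCL6 lost gave 1.45 with classes formed at 100 bp, which passed the test (adjusted p = 0.0446, Fisher's exact test), and turned direction without a call within 100 bp (0.988) and with no fed PPARα within 1000 bp (0.959). Directions that were not called also turned for promoters from 5000 bp upstream to 1000 bp downstream against BCL6 without PPARα (0.881), for DR1 against PPARα gained with BCL6 lost in the 50 bp window (0.642) and with at most 1 mismatch (0.913), and for DR1 against both factors in both states with no fed PPARα within 1000 bp (1.01).

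The shares of members moved to 0.868% for fasted PPARδ within 100 bp, 15.7% for fed PPARδ with classes formed at 100 bp, 15.2% for the wider promoters, 2.60% and 2.17% for DR1 in the 50 bp window and with at most 1 mismatch, and 6.51% and 3.04% for BCL6 elements in the 50 bp window and with no mismatch. The shorter windows and stricter matches hold fewer elements by construction, and the cause of the other changes was not tested. With the TSS within 100 kb, 362 genes and 29 members at listed genes were left. No paired analysis was possible because the lists pool the replicates, and no replicate could be left out for the same reason. The unknown depth limits what a missing call means.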

Other observations

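Seen from PPARα, 11989 of the 29085 fasted PPARα peaks (41.2%) had no fed PPARα center within 200 bp. Of these, 448 (3.74%) had a BCL6 center within 200 bp in both states, 813 (6.78%) in fed liver only and 350 (2.92%) in fasted liver only, while 10378 (86.6%) had none. The 448 differ from the 461 members because distances, also that to the fed PPARα center, were taken here from the fasted PPARα center. The rule for members does not exclude a fed PPARα center within 200 bp of the fasted PPARα center, and such members were not counted.

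Another fed BCL6 peak lay within 10 kb of 218 members (47.3%), against 48.9% of all fed BCL6 peaks. The next peak had both factors in both states in 96 of the 218 (44.0%) and was itself a member in 14 (6.42%). The matching shares over all fed BCL6 peaks were not computed, so neither value can be read as clustering. By chromosome, members made up from 1.32% (8 of 605, chromosome 14) to 4.92% (12 of 244, chromosome X) of the fed BCL6 peaks among the autosomes and X.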
